A study of Mus musculus with 48 samples.

Results

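The Rhox6/Rhox9-positive cells of the V580_D6 culture were 513 of 15412 cell barcodes, which is 3.33% (exact 95% binomial interval 3.05 to 3.62). They were selected on their own counts: a barcode had to hold at least 200 detected genes, at least 3 UMIs of Rhox6 and Rhox9 together, no UMI of Wt1 or Upk3b, and fewer than 3 of Lama1, Cubn, Sox17 and Foxa2. A UMI is a molecular identifier that counts 1 captured transcript. The cells came from female mouse C57BL/6 embryonic stem cells that had been exposed for 6 days to V580, which is vitamin C (Vc) together with the retinoic acid receptor agonist AM580, in order to obtain gonadal somatic cell-like cells (GSCLCs). The study sequenced them on the 10x platform, and the methods describe repeated runs, but all barcodes of the table carried the same suffix, so that runs could not be told apart. The table is therefore 1 sample here, no test between samples was possible, and all intervals on cells covered counting error only. Each level below is a summed level, in CPM, that is the UMIs of a gene in a group of barcodes per 1000000 UMIs of that group, and ratios set the 513 barcodes against the other 14899.

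Bulk values served for context. They were FPKM (fragments scaled by transcript length and library size) of untreated cells (Con), cells given Vc and cells given V580 at 24 h and 48 h, with 2 libraries each, of V580_D4, V580_D6, V580_D8 and V580_D10, with 3 libraries each, and of E12.5_GC, cells separated from female gonads of mouse embryos at E12.5, with 3 libraries. Gonadal somatic cells (GSCs) of 4 stages, from E12.5 to P6w, had read counts of 2 libraries each. Nothing in the labels says that libraries of 1 group came from separate cultures or animals, so p values measure only the spread between libraries.

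The Rhox genes form a cluster of homeobox genes on the mouse X chromosome that is active in placenta, germ cells and gonads. Rhox6 and Rhox9 are neighbouring near-copies of each other, and both are known from placenta and from germ cells. Sct encodes secretin, a peptide hormone, and Krt8 encodes a keratin of simple epithelia, in which it pairs with the product of Krt18. Trophoblast, the outer lineage of the embryo that builds the placenta, expresses transcription factors such as Tfap2c, Gata3, Ascl2 and Hand1, and it shares simple keratins and cell junction genes with other early epithelia.

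The likeness of Rhox6 and Rhox9 bears on how far their counts can be told apart, and 1 stretch of their coding sequences shows it. In the GENCODE annotation of mm10, Rhox6 lies at chrX:37826910-37829857 on the plus strand and Rhox9 at chrX:37899097-37901770 on the minus strand. The coding sequences of the transcripts Rhox6-201 and Rhox9-201, each of 4 exons and 681 coding bases, shared 617 aligned bases, an identity of 90.6%. The stretch below runs from coding base 281 to 400 of each, 5′ to 3′, with the 7 bases that differ in capitals.
Rhox6: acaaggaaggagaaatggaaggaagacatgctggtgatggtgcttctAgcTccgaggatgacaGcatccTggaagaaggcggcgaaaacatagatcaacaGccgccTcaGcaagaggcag
Rhox9: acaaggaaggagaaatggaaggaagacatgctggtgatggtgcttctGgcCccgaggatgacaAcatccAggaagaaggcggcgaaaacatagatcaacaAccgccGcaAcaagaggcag
Reads of the usual 10x assay fall near the 3′ end of a transcript. Over the last 300 bases of the 2 transcripts, 240 of 269 aligned bases were identical and the longest identical run was 38 bases. How the counting split reads between the near-copies was not tested, and the rule used the summed count of both.

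Among the barcodes outside the selected set, 11572 of 15412 had no UMI of either gene, 2230 had 1 and 598 had 2. Another 499 barcodes had at least 3 Rhox UMIs and were dropped by the exclusion genes. Of all 1012 barcodes with at least 3 Rhox UMIs, 452 had a UMI of Wt1 or Upk3b, genes of the mesothelium and early gonad, 98 had at least 3 of the endoderm genes, and 51 had both. The dropped barcodes were deep, with a median of 20267 UMIs. The selected barcodes therefore held 45.1% of the library's Rhox6 UMIs and 51.2% of its Rhox9 UMIs.

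Within the 513 barcodes, the Rhox UMIs had a lower quartile of 5, a median of 8, an upper quartile of 27 and a maximum of 396. Exactly 3 UMIs were held by 85 barcodes, and 150 held at least 20. Both genes were detected in 454, Rhox6 alone in 46 and Rhox9 alone in 13. Summed levels were 1559 CPM for Rhox6 and 1520 CPM for Rhox9, against 58.5 and 44.6 CPM in the other barcodes, values that the selection itself fixed. Over the 15412 barcodes of the library, the scaled log values of the 2 genes had a Pearson r of 0.655, and over the 513 it was 0.572. Those points share 1 library, their depth and near-identical transcripts.

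The selected barcodes were shallower than the rest. Their median was 4170 UMIs and 1735 genes, with a range of 886 to 63882 UMIs, against 9344 UMIs and 3086 genes in the others. The mitochondrial share had a median of 2.57% against 3.39%, and none exceeded the 40% that the study used as a limit, while 97 of the other barcodes did. The deepest 51 of the 513 held 36.8% of their UMIs, so summed levels lean on them. A doublet caller marked 0 barcodes in the whole library and is taken not to have worked, so doublets may remain, and their part in the results was not tested.

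Grouping of all barcodes by their other genes, with the 8 genes of the rule left out, put 374 of the 513 (72.9%) in 1 of 10 clusters. This was cluster 8 with 580 barcodes, of which 64.5% (60.4 to 68.4) met the rule. Its highest genes against the rest of the library were Serpinb9e, 1600025M17Rik, Tnfrsf9, 3830417A13Rik and Fthl17a. The next highest share was 39 of 1009 barcodes (3.87%) in cluster 5, led by Stra8, Wfdc2, Cldn3 and Dppa5a. Cluster 0, of low depth, held 42 of its 3707 barcodes. The remaining clusters held between 0 and 16 each. The rule used some of the same cells' counts, so these shares are a description.

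**Figure D1:**
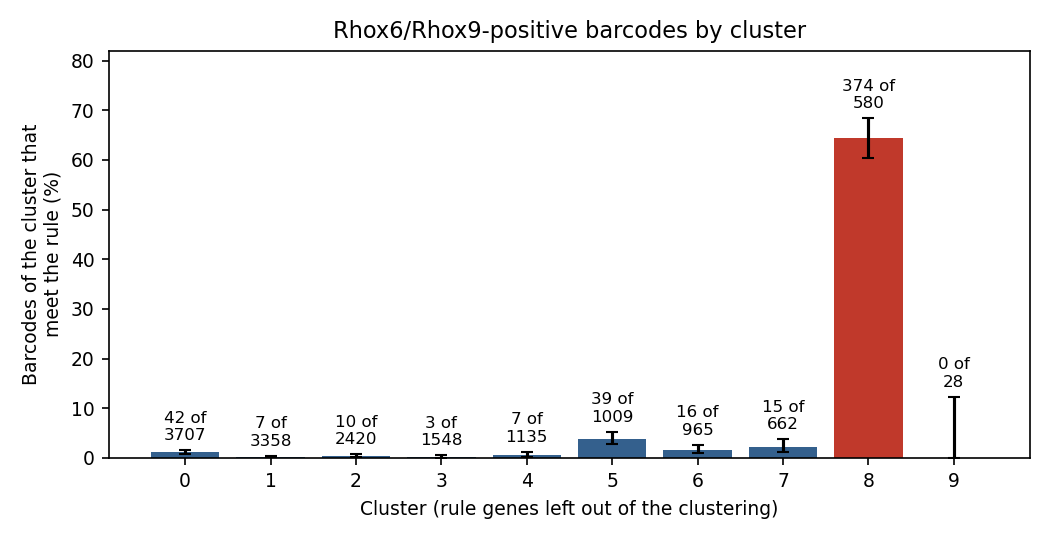
Share of each cluster's barcodes that met the rule (%), for the 10 clusters made without the rule genes, with exact 95% binomial intervals (counting error only) and the counts above each bar. Cluster 8 stands at 64.5% (374 of 580), and every other cluster is at 3.87% or lower, with cluster 9 at 0 of 28.

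The label of the set thus covered barcodes of cluster 8 and a mixture of barcodes from other clusters. The 374 in cluster 8 had a median of 13 Rhox UMIs and 3516 UMIs in all, and the 139 elsewhere had a median of 4 and 11154. For a selected barcode in cluster 8, the median share of its 20 nearest neighbours that were also selected was 70%, whereas it was 5% for one elsewhere. The clusters were made from these same neighbours, so that difference follows in part from the clustering. Over all 513 the median was 65%, and over the other barcodes 0%. Rhox6 stood at 2115 CPM in cluster 8 and 423 CPM elsewhere, and Rhox9 at 2137 and 258 CPM.

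Sct differed between the 2 groups, though neither it nor the genes below were left out of the clustering that made them. It stood at 1366 CPM in the 374 barcodes and at 49.4 CPM in the 139. The barcodes outside the set had 37.6 CPM, but 3921 of their 5951 Sct UMIs came from barcodes of cluster 8 that missed the rule. That level is therefore no background for the 139. Over all barcodes of each of clusters 0 to 7, Sct ran from 3.76 to 23.7 CPM, below the level of the 139. Krt8 was at 2204 and 511 CPM, Tfap2c at 204 and 19.4 CPM, and Nrk, which encodes a protein kinase on the X chromosome, at 956 and 31.9 CPM. The 139 came from several clusters, so their sums mix these. Meg3 was at 1432 CPM there against 223 CPM in cluster 8, and Acta2 of contractile cells at 876 against 57.2 CPM. Dppa5a of pluripotent cells was at 598 against 33.4 CPM, and Stra8, a retinoic acid target of germ cells, at 268 against 5.20 CPM. Acta2 was among the highest genes of clusters 0 and 6, and Stra8 and Dppa5a among those of cluster 5.

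Conversely, 206 barcodes of cluster 8 missed the rule. Of these, 132 had a UMI of Wt1 or Upk3b, 97 of them exactly 1, and 92 had fewer than 3 Rhox UMIs. Their summed levels were near those of the selected barcodes of the cluster, with Sct at 1355 CPM, Rhox6 at 1832 CPM and Tfap2c at 187 CPM. In cluster 1, led by Igfbp5, Upk3b and Wt1, the median barcode had 6 UMIs of Wt1 and Upk3b among 12136 UMIs in all, against 1 among 3154 in these 206.

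The values on either side of the threshold show where the set begins. Among barcodes that met the exclusion rule, those with 2 Rhox UMIs (164) had 13.4% in cluster 8 and those with 3 (85) had 37.6%. Sct stood at 32.5 CPM with 0, 58.3 CPM with 1, 25.5 CPM with 2 and 128 CPM with 3, Krt8 at 624 CPM with 2 and 584 CPM with 3, Tfap2c at 8.76 and 24.4 CPM, and Wnt4, a signal of the gonad and kidney, at 106 and 134 CPM. Above the threshold the share in cluster 8 was 60.4% at 4 to 5 UMIs, 73.4% at 6 to 10, 85.7% at 11 to 20, 91.5% at 21 to 50 and 97.3% over 50. Sct reached 1611 CPM and Tfap2c 228 CPM in the last group, where Wnt4 was at 12.54 CPM. Depth moved along with the Rhox count, since the median was 2379 UMIs at 3 Rhox UMIs and 20829 over 50, and its part was not tested. The levels in CPM are relative to depth, but the cut on whole UMIs is not.

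**Figure D2:**
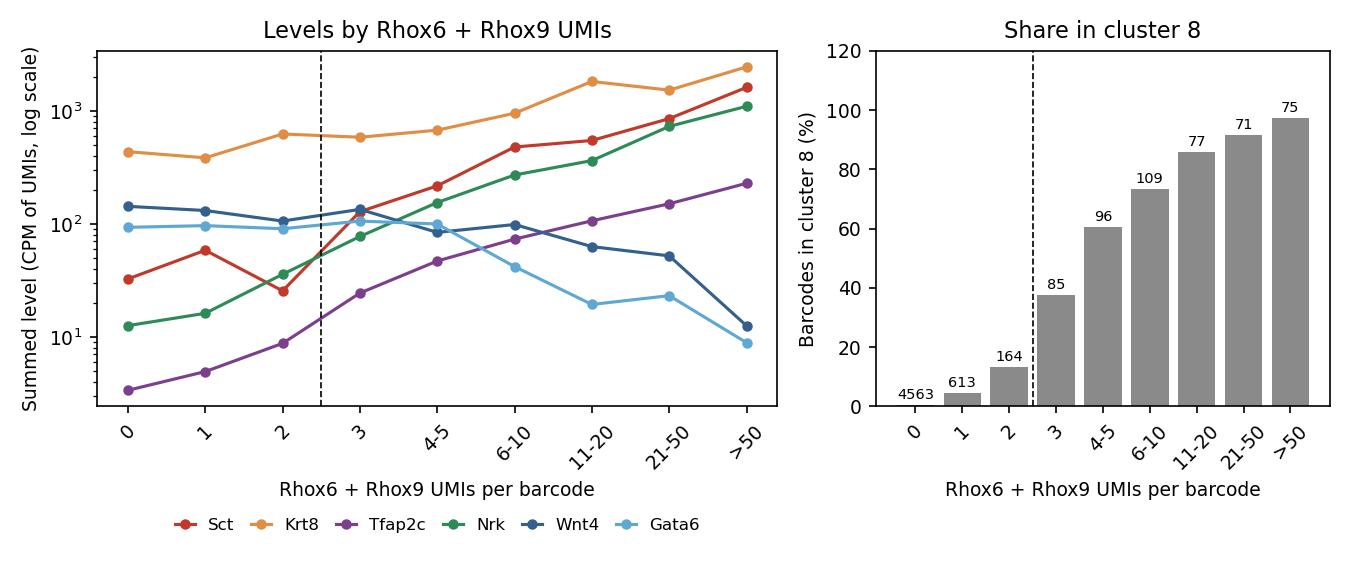
Left, summed level (CPM of UMIs, log scale) of 6 genes in barcodes that met the exclusion rule, by their number of Rhox6 and Rhox9 UMIs, and right, the share of those barcodes in cluster 8 (%), with the number of barcodes above each bar. The dashed line marks the threshold of 3 UMIs, and Sct is at 128 CPM just inside it and at 1611 CPM over 50 UMIs, while Wnt4 goes from 134 to 12.54 CPM.

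Among 7014 genes with at least 20 CPM in either group, 638 were at least 2-fold higher in the 513 barcodes, which is 9.1% of the genes, and 709 were at least 2-fold lower, which is 10.1%. The median ratio of the 7014 genes was 1.03. Without the exclusion genes 307 were higher and 101 lower of 6810 genes. With 1 library none of these counts is a test. Restricted to the 374 barcodes of cluster 8, a choice made after the values were seen, 985 genes were higher and 1085 lower (13.7% and 15.1% of 7170). For the 139 elsewhere they were 127 and 161 (1.89% and 2.39% of 6724).

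The 25 leading genes, which were those with the highest ratios among genes with at least 50 CPM and a UMI in at least 10% of the 513, stood 18.4-fold to 36.7-fold higher. First came 1600025M17Rik, a long noncoding RNA, at 92.7 against 2.53 CPM. Fthl17a, a ferritin heavy chain-like gene, stood at 279 against 7.64 CPM, and 3830417A13Rik at 213 against 5.97 CPM. The serpins Serpinb9e and Serpinb9b, from a family of protease inhibitors with close copies in which reads may be shared, were 35.8-fold and 29.3-fold higher. Fthl17a and Gm9112 may share reads with related copies in the same way.

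Several leading genes are known from placenta. Tfap2c, which encodes the AP-2gamma transcription factor, was at 143 CPM (133 to 154) against 4.79 CPM, a ratio of 29.9 (26.9 to 33.2). Esx1, a homeobox gene of the placenta, was at 59.6 against 2.92 CPM, and Plac1, a placental membrane protein, at 79.6 against 4.17 CPM. Plet1, whose name comes from placenta-expressed transcript, was at 156 against 8.21 CPM. Ldoc1, at 226 against 7.50 CPM, derives from a retrotransposon. The metallothionein Mt2, a metal-binding protein, had the highest level of the 25 at 948 against 49.6 CPM.

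In the selected barcodes outside cluster 8, 10 of the 25 leading genes were at least 2-fold above the rest of the library, where 1.89% of 6724 genes were. That rest includes the 206 barcodes of cluster 8 that missed the rule, which held most of its Sct UMIs. Sct, at a ratio of 1.31, was not counted, and the 10 may understate the genes raised above the other clusters. Tnfrsf9, a receptor of the tumour necrosis factor family, was at 113 CPM in cluster 8 and 0.63 CPM outside it, and Plac1 at 117 and 2.50 CPM. Mt2 and Esx1 differed less, with 1203 against 426 CPM and 72.2 against 33.8 CPM.

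**Figure D3:**
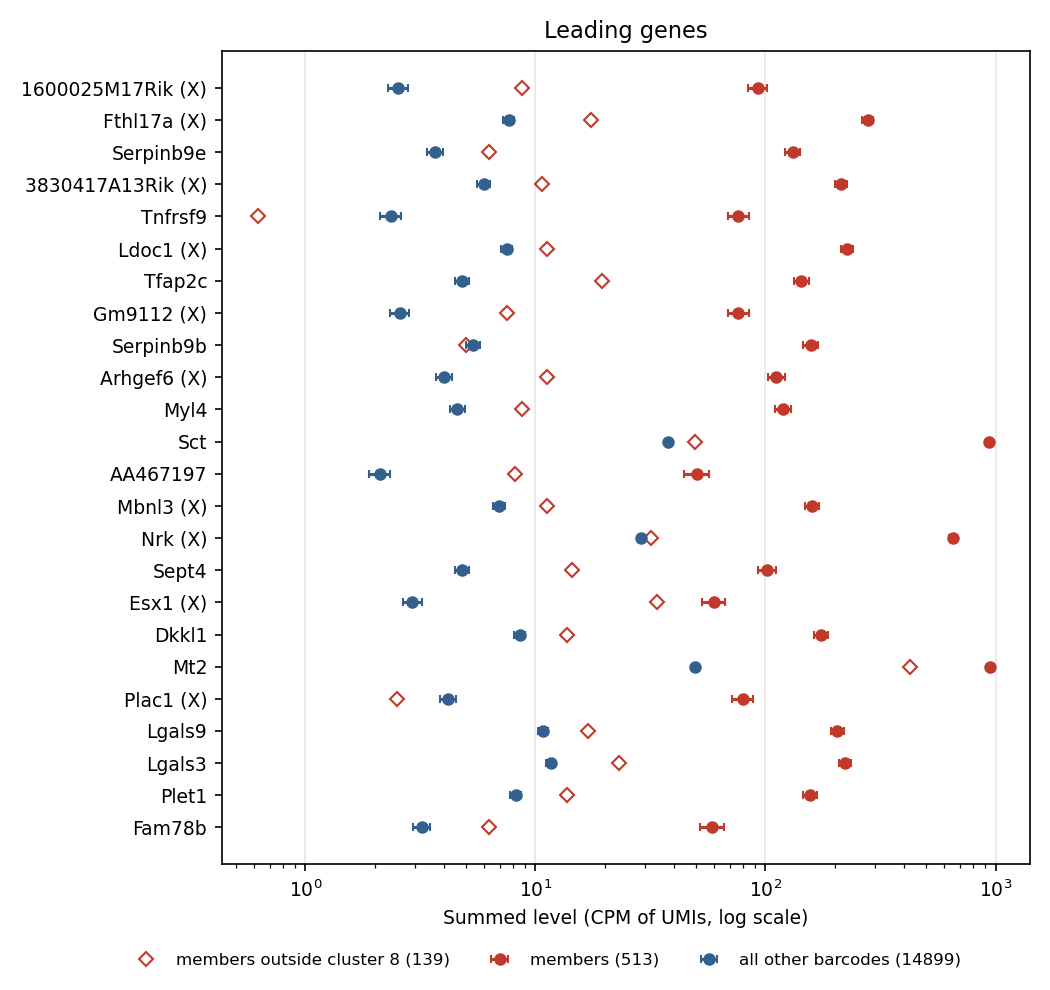
Summed level (CPM of UMIs, log scale) of 24 of the 25 leading genes in the 513 selected barcodes, in the other 14899 and in the 139 selected barcodes outside cluster 8, with exact 95% Poisson intervals for the first 2 groups (counting error only) and X for genes on the X chromosome. The filled red points lie 18.4-fold to 36.7-fold above the blue ones, and the open diamonds lie at least 2-fold above the rest of the library in 10 of the 25 genes, among them Mt2 at 426 CPM, Esx1 at 33.8 CPM and Tfap2c at 19.4 CPM. That rest includes the 206 barcodes of cluster 8 that missed the rule.

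Of the 25 leading genes, 10 lie on the X chromosome, like Rhox6 and Rhox9: 1600025M17Rik, Fthl17a, 3830417A13Rik, Ldoc1, Gm9112, Arhgef6, Mbnl3, Nrk, Esx1 and Plac1. X-linked genes were 3.21% of the 7014 genes compared, 6.27% of the genes at least 2-fold higher and 4.65% of those at least 2-fold lower. Without Rhox6 and Rhox9, it gave 3.40% of the UMIs of the selected barcodes and 3.13% of those of the others, with 3.55% inside cluster 8 and 3.11% outside it. Xist, the RNA that coats the inactive X chromosome, had a UMI in 4 of the 513 and in 83 of the others.

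Sct was at 933 CPM (906 to 961) in the 513 barcodes and at 37.6 CPM in the others, a ratio of 24.8 (23.9 to 25.8). It had a UMI in 60.6% of the 513. Thinned to 1000 UMIs per barcode, which left 502 selected and 14169 other barcodes and dropped 11 and 730 shallower ones, the share was 34.7% against 2.00%. In clusters 0 to 7, Sct ran from 3.76 CPM in cluster 4 (median of 20270 UMIs) to 23.7 CPM in cluster 0, and between 3.04% and 15.2% of the barcodes of a cluster had a Sct UMI, the lowest in cluster 3 and the highest in cluster 6. Sct was not confined to the Rhox-rich cells. The 28 barcodes of cluster 9, led by Sst, Lamp5 and Cartpt, genes of neurons, had Sct at 1420 CPM (1300 to 1548) and none met the rule, a cluster singled out after its values were seen. The secretin receptor gene Sctr had no UMI in the 513, and of the 3 genes of the list of secretin relatives and its signal pathway that reached 20 CPM (Gnas, Prkaca and Creb1) none moved 2-fold, with a median ratio of 0.666.

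Among the 10 genes whose level went most closely with summed Rhox6 and Rhox9 over 15412 barcodes, on the scaled log values, were 3830417A13Rik (r = 0.521), Sct (0.496), Serpinb9b (0.482), Nrk (0.477), Ldoc1 (0.466), Tfap2c (0.447), Fthl17a (0.440), Sin3b (0.433) and Mbnl3 (0.430). The points share 1 library and their depth. Sin3b was the only one of the 10 not among the leading 25. Both lists rest on the Rhox6 and Rhox9 counts of the same barcodes, so their overlap follows in part from how they were made. It encodes a subunit of a histone deacetylase complex and is expressed widely. It stood at 2237 against 224 CPM, a ratio of 10.0 (9.78 to 10.2). In single barcodes of cluster 8 that met the rule, the median was 32.2 Sin3b UMIs per 10000 UMIs, and the middle 50% ran from 19.9 to 45.1. Elsewhere the median was 2.28.

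The promoter letters of the leading genes were searched because Tfap2c, which encodes a factor known to bind AP-2 motifs, was among them. The RefSeq promoters (GRCm38.p6) gave 24 windows for 21 of the 25 genes, and the 250 bases before each start were searched for GCCNNNGGC, which is its own reverse complement. It occurred in 3 of the 24 windows, against 13.7% of all 32851 windows. The window of Sct is shown, as the leading gene with the highest level but for Mt2, and the capitals mark the match. The Sct window lies at chr7:141279134-141279383 on the minus strand, directly before the gene. It holds 22 CpG dinucleotides against a median of 6 over all windows and 7.5 over the 24 windows of the leading genes.
Sct: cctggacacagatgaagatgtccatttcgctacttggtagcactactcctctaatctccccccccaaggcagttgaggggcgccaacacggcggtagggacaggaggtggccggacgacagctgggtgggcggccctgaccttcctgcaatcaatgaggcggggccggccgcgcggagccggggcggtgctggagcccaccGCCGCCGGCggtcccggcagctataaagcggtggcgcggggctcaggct
A match is no proof of a site, and its absence says only that these letters are not in the window.

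The other Rhox genes were scarce. Of 18 measured besides Rhox6 and Rhox9, only Rhox5 reached 20 CPM, at 602 against 160 CPM, a ratio of 3.76 (3.62 to 3.91). In the 513, Rhox5 was at 687 CPM in cluster 8 and 428 CPM outside it, and so varied less between the 2 groups than Rhox6 did. Over all barcodes of a cluster, Rhox5 was at 683 CPM in cluster 8, 478 CPM in cluster 7 and 435 CPM in cluster 4. Rhox4e was at 17.3 against 0.44 CPM, Rhox13 at 15.4 against 1.02 CPM and Rhox4d at 11.9 against 0.42 CPM, although the Rhox4 copies share sequence and their counts may be mixed. In the 513, 6 of the 18 genes were at 0.

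Genes of simple epithelium were higher. Of 16 compared, 11 were at least 2-fold higher and 0 lower, against 9.1% and 10.1% of all genes. The median ratio was 2.90, against 1.03 over all genes. Krt8 stood at 1648 CPM (1612 to 1685) against 361 CPM, a ratio of 4.56 (4.45 to 4.67). Krt18 was at 1934 against 619 CPM and Krt7 at 377 against 63.0 CPM. Of the junction genes, Pkp2 of desmosomes was 6.23-fold higher, Cldn4 of tight junctions 4.14-fold, and Cdh1, the epithelial cadherin, 3.32-fold. The remaining 5 lay within 2-fold, among them Tjp1 (1.02), F11r (0.59) and Cldn6 (0.71). The clusters next in epithelial genes differed from cluster 8 in kind. Epcam was at 739 CPM in cluster 5 and 390 CPM in cluster 8, whereas Krt8 was at 797 and 1983 CPM, and Sct at 13.2 and 1361 CPM.

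Of the 13 trophoblast genes that reached 20 CPM, 11 were at least 2-fold higher and 0 lower, against 9.1% and 10.1% of all genes. The median ratio was 19.1. Tfap2c, Esx1, Plac1 and Sct are also in this list, and they had been named as leading for their high ratios in these same barcodes. Tfap2c, Esx1, Plac1 and the genes Ascl2, Hand1, Gata3, Dlx3 and Phlda2 below were under 20 CPM in the other barcodes. They were compared only through the selected barcodes and could not count as lower, so the count is a description. Of the transcription factors, Ascl2 was at 44.8 against 1.67 CPM, Hand1 at 38.4 against 1.60 CPM, Gata3 at 78.7 against 14.9 CPM and Dlx3 at 23.0 against 2.31 CPM. Gata3 was not confined to cluster 8, with 110 CPM over its barcodes and 61.2 CPM over those of cluster 5. Of the imprinted genes, Phlda2 was at 174 against 15.6 CPM and Peg10 at 882 against 261 CPM. Gata2 (1.93) and Fgfr2 (1.61) were the 2 genes within 2-fold. Tpbpa, a gene of the spongiotrophoblast, was 88.4-fold higher but had its 261 UMIs in 16 of the 513 barcodes.

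Other genes of the trophoblast list were near or at 0. Cdx2, of the early trophoblast, was at 15.6 against 1.88 CPM, with a UMI in 26 of the 513. Eomes had 3 UMIs and Elf5 had 10, both of which are known from trophoblast stem cells. Gcm1 had 14 and Syna 9, which belong to the labyrinth of the placenta. Prl3d1 and Prl3b1, the placental lactogens of giant cells, had 0. In the list of allantois and extraembryonic mesoderm, which also holds Hand1, that gene was higher, while the other 2 genes compared, Hand2 and Bmp4, had ratios of 0.20 and 0.25. The mesoderm gene T had 1 UMI.

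Summed over its genes, the pluripotency list was at 329 CPM in the selected barcodes of cluster 8 and 877 CPM in those outside it. Dppa5a made up most of the sum outside, and single genes went in both directions. The germ cell list was at 71.9 and 467 CPM. Of 6 pluripotency genes at 20 CPM or more, 5 were higher, where 9.1% of all genes were, with a median ratio of 4.16. Utf1 was at 116 CPM in cluster 8 and 41.3 CPM outside it, but Dppa5a and Sox2 went the other way, Sox2 with 0.31 and 36.9 CPM. Nanog had a UMI in 7 of the 513 and Pou5f1 in 12. Of the germ cell genes, only Stra8 was higher and Dnd1 lower of 2 compared. Dppa3 had all but 1 of its 89 UMIs outside cluster 8, in 9 barcodes of the 513 in all.

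Genes of the gonad and its neighbours were lower, though the rule removed barcodes with Wt1 or Upk3b, which are genes of these same cells, and 4 genes of the endoderm. All 5 genes of the gonad supporting list that were compared were at least 2-fold lower, where 10.1% of all genes were, with a median ratio of 0.228. Wnt4 was at 55.5 against 252 CPM, although its ratio was 0.563, within 2-fold, without the exclusion genes. Emx2 was at 5.96 against 63.3 CPM and Gata4 at 8.43 against 33.9 CPM. Of 4 mesothelial genes, 3 were lower and 0 higher. Of 10 interstitial and fibroblast genes, 8 were lower, and Col1a1 was at 68.2 against 145 CPM. Col1a1 was at 8.57 CPM within cluster 8, against 190 CPM outside it. Of 9 genes of extraembryonic endoderm, 8 were lower, among them Gata6 at 36.2 against 151 CPM and Col4a1 at 289 against 768 CPM.

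The 15 genes with the lowest ratios, 0.09 to 0.17, were Dock4, Emx2, Tmem108, Fras1, Alcam, Rspo3, Mir99ahg, Stk26, Myrf, Sema3c, Aldh1a2, Igfbp5, Ltbp1, Dach1 and Frmd4b. Igfbp5, which encodes a binding protein of insulin-like growth factors, had the highest level of them, 66.2 against 455 CPM. Aldh1a2, which makes retinoic acid, was at 9.87 against 69.5 CPM. The rule removed barcodes with Wt1 or Upk3b, and Igfbp5, Aldh1a2, Emx2, Myrf and Frmd4b are among the highest genes of cluster 1 beside both. Without the exclusion genes, 101 genes rather than 709 were at least 2-fold lower. The same limit holds for the lower genes of the lists that follow.

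Retinoic acid genes were lower in part. Of 10 compared, 6 were at least 2-fold lower and 0 higher, against 10.1% and 9.1% of all genes, with a median ratio of 0.458. The receptor gene Rarb, itself a target of the receptor that AM580 activates, was at 11.1 against 38.8 CPM, and the retinoic acid-degrading enzyme gene Cyp26a1 at 49.7 against 114.8 CPM. In cluster 8, Rarb was at 2.45 CPM and Cyp26a1 at 19.3 CPM. Of 12 BMP genes, 6 were lower, with Id1 at 174 against 487 CPM and Id3 at 217 against 673 CPM, and of 5 Wnt genes, 4 were lower, with Axin2 at 13.8 against 38.7 CPM. Neither list had a gene 2-fold higher. How far the exclusion genes of the rule bear on these lower values was not tested.

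Imprinted and X-linked placental genes moved in both directions. Of 11 compared, 2 were higher and 6 lower, against 9.1% and 10.1% of all genes, with a median ratio of 0.448. Cdkn1c, an inhibitor of the cell cycle, was at 752 CPM (728 to 777) against 145 CPM, and the amino acid transporter gene Slc38a4 at 395 against 169 CPM. Meg3 (0.31), Mest (0.28), Dlk1 (0.35), Plagl1 (0.35), Grb10 (0.37) and Peg3 (0.45) were lower. Igf2 (1.07), Trap1a (1.42) and H19 (1.53) lay within 2-fold. Cdkn1c differed between the 2 groups of barcodes, with 1059 CPM in cluster 8 and 123 CPM outside it.

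The DNA methylation enzymes stayed mostly within 2-fold, with 1 of 6 lower and 0 higher. Dnmt1 was at 198 against 107 CPM. Cell cycle genes hardly differed: 13 of 14 S phase genes and all 16 genes of G2/M lay within 2-fold, with median ratios of 0.902 and 1.03. Among stress genes, 3 of 9 were higher (Atf3, Ddit3 and Hspa1a, at ratios of 3.05, 2.50 and 2.69) and 2 lower (Jun and Egr1, at 0.35 and 0.29). Over all genes, 9.1% were higher and 10.1% lower. Cd63, the surface protein by which the study sorts GSCLCs, was at 544 against 458 CPM.

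Markers of other cell types were looked for. All 8 blood genes had 0 UMIs in the 513 and none was compared. No neuronal gene reached 20 CPM, and Tubb3, the highest, was at 12.95 CPM. Of the endothelial genes, Cdh5 was 30.1-fold higher, at 49.7 against 1.65 CPM, while Kdr was at 11.3 against 60.3 CPM. Pecam1, Tek and Emcn, which define endothelium, had 8, 2 and 1 UMIs. Of the 3 genes that lead cluster 7 (S100g, Fabp3 and Cited1), Fabp3 alone was higher, at 713 against 239 CPM. S100g was at 21.4 CPM in cluster 8 and 273 CPM outside it.

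**Figure D4:**
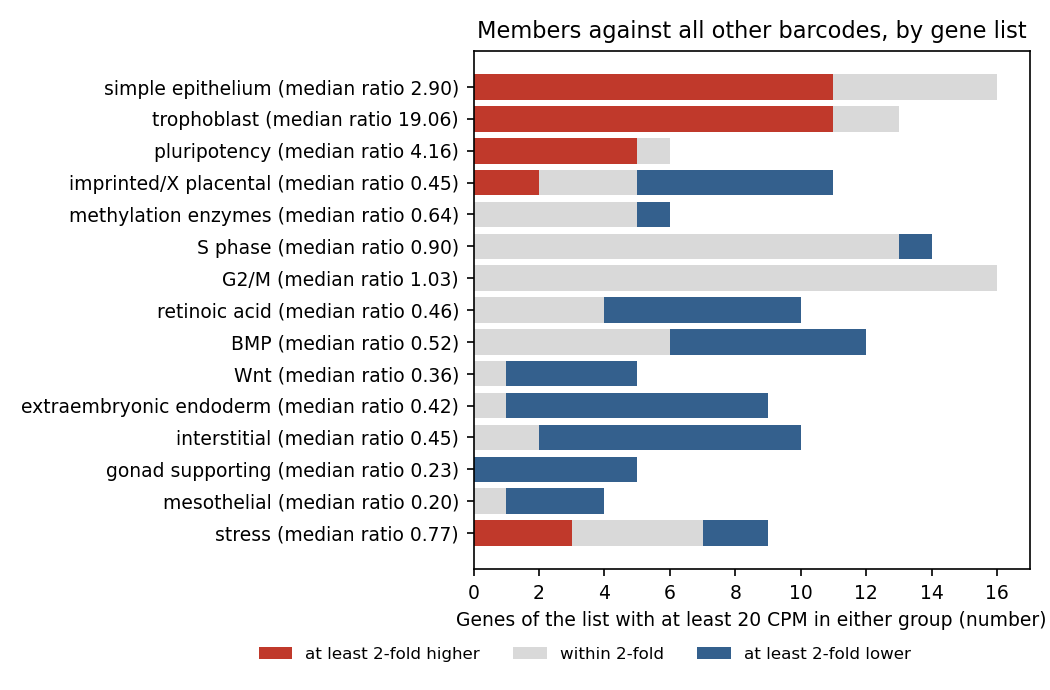
Number of genes of 15 lists that were at least 2-fold higher (red), within 2-fold (grey) or at least 2-fold lower (blue) in the 513 barcodes against the other 14899, among genes with at least 20 CPM in either group, with the median ratio of each list beside its name. Trophoblast (11 of 13) and simple epithelium (11 of 16) hold the most red, and the lists of gonad supporting, interstitial and extraembryonic endoderm genes hold none. Genes that reached 20 CPM only in the selected barcodes, as many of the trophoblast list, could not count as lower. Over all genes compared, 9.1% were higher and 10.1% lower.

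In the bulk FPKM table of 13682 genes, 13 of the 25 leading genes were listed, and Rhox6, Rhox9 and Sct were not. The levels belong to whole cultures, in which fewer cells of a type and less RNA per cell cannot be told apart. Tests were made with limma on log2(FPKM+1), a scale that understates the change of low genes, and a gene was called at an adjusted p (BH) below 0.05 and at least 2-fold. None of 12 leading genes was called higher at V580_D6 than at V580_D4, where 3.41% of all genes were. By limma 7 of the 12 were higher at an unadjusted p below 0.05, as were 25.1% of all genes. In the other direction 1 of the 12, Mt2, was called lower at V580_D6, where 1.67% of all genes were. Mt2 stood at 1.72, 1.10 and 2.62 FPKM at V580_D4 and at 0.45, 0.15 and 0.43 FPKM at V580_D6, and the 2 days did not overlap. The log2 change of Mt2 was -1.04 (SE 0.17, limma adjusted p = 1.6e-04). Mt2 passed the filter on low values through its V580_D4 libraries alone, and the call was lost without V580_D6 replicate 2 and without any 1 of the V580_D4 libraries.

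The time courses of single leading genes differed. Plac1 had FPKM values of 7.84, 7.30 and 7.63 at V580_D4, 6.10, 5.87 and 5.44 at V580_D6, 2.37, 2.81 and 2.73 at V580_D8, and 1.16, 1.06 and 0.86 at V580_D10. No library of 1 day overlapped those of another. The log2 change of Plac1 was -0.90 (SE 0.08, limma adjusted p = 8.2e-07) from V580_D6 to V580_D8 and -0.84 (SE 0.08, limma adjusted p = 3.4e-06) from V580_D8 to V580_D10, below the 2-fold limit in each step. Plet1 went the other way, with 3.27, 2.91 and 2.96 FPKM at V580_D4 and 7.45, 7.78 and 5.80 FPKM at V580_D10.

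Nrk was highest at V580_D6, with 9.20, 8.24 and 8.32 FPKM, against 5.93, 4.62 and 5.54 FPKM at V580_D4 and 5.47, 5.37 and 5.58 FPKM at V580_D8. Its 3 libraries at V580_D6 lay above all of both neighbouring days. The log2 change was 0.59 (SE 0.14, limma adjusted p = 0.0029) from V580_D4 to V580_D6. From V580_D6 to V580_D8, 2.29% of all genes were called higher and 0.252% lower, and from V580_D8 to V580_D10, 0.321% lower. Of the 12 leading genes 0 were called in any of these, with 2 higher and 4 lower at an unadjusted p below 0.05 by limma in the first step and 2 lower in the second. Of all genes, 23.6%, 25.2% and 19.7% were below it. Krt8 stood at 331, 300.0 and 313 FPKM at V580_D6, below the 548, 497 and 488 FPKM at V580_D4.

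Against E12.5_GC, 5 of the 12 leading genes were called higher at V580_D6, where 7.06% of all genes were. They included 3830417A13Rik, Lgals3, Plet1 and Serpinb9b. In 3830417A13Rik the values were 8.67, 8.14 and 8.37 FPKM at V580_D6 and 0.02, 0 and 0 in E12.5_GC, with a log2 difference of 3.22 (SE 0.10, limma adjusted p = 1.2e-12). Serpinb9b was at 4.82, 3.45 and 3.43 FPKM against 0.03, 0.03 and 0.05 FPKM. Mbnl3 alone of the 12 was called lower, where 8.11% of all genes were, with 2.76, 2.46 and 2.78 FPKM at V580_D6 and 9.18, 3.92 and 11.1 FPKM in E12.5_GC. The log2 difference of Mbnl3 was -1.20 (SE 0.22, limma adjusted p = 2.2e-04), and the call was lost without E12.5_GC replicate 3. Nrk and Plac1 were within 2-fold.

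Some leading genes were also measured in cells without V580. At 24 h, Con cells had 20.3 and 21.2 FPKM of Lgals3, which encodes a galectin, and 9.98 and 8.96 FPKM of Plet1. At 48 h these were 1.95 and 1.87, and 1.86 and 2.05 FPKM. Of 7 leading genes compared at 48 h, Lgals9 alone was called higher in V580 than in Con, where 1.85% of all genes were. It stood at 23.3 and 22.6 FPKM with V580 and 8.66 and 8.13 FPKM in Con, with a log2 difference of 1.35 (SE 0.07, limma adjusted p = 9.3e-09). Lgals9 was at 16.7 and 18.3 FPKM with Vc alone at that time.

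**Figure D5:**
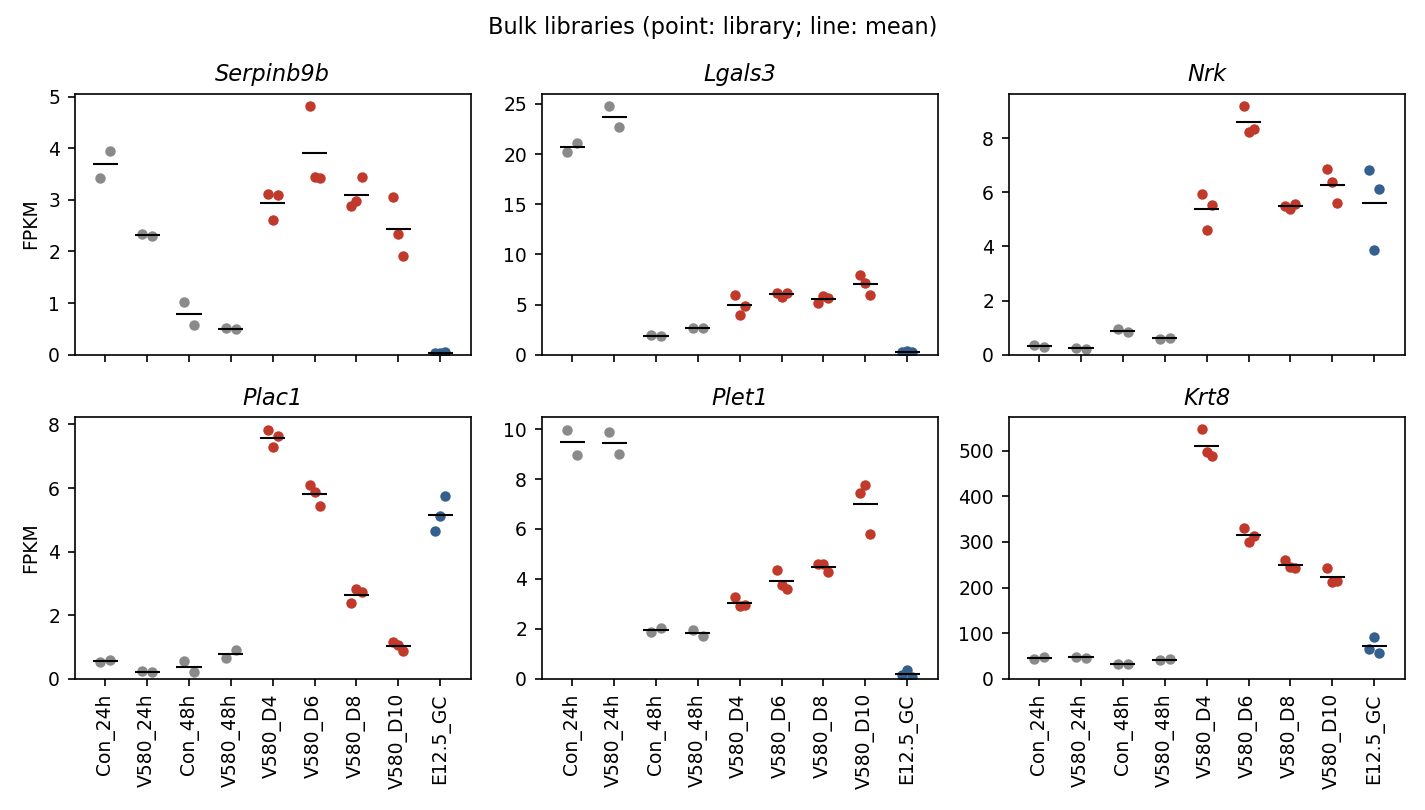
FPKM of 5 leading genes and Krt8 in each bulk library (points) with the group mean (line), for Con and V580 at 24 h and 48 h (2 libraries each), V580_D4 to V580_D10 and E12.5_GC (3 libraries each). Plac1 goes from 7.30 or more at V580_D4 to 1.16 or less at V580_D10, Nrk is highest at V580_D6, and Serpinb9b, Lgals3 and Plet1 are lowest in E12.5_GC.

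In the read counts of GSCs, both Rhox genes were low and highest at E13.5. The E12.5 libraries held 26 and 21 counts of Rhox6, the E13.5 libraries 130 and 103, the E16.5 libraries 36 and 47, and the P6w libraries 1 and 7. In the same order, Rhox9 had 32 and 42, 240 and 200, 50 and 55, and 1 and 11 counts. The libraries held 12694769 to 22259044 counts in all. Both libraries of E13.5 lay above all others for each gene, and no test was made. Counts of Sct were 71 and 36 at the first stage and 105 and 77 at the next.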

How the data were processed

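The values were taken from the study's processed tables. The authors deposited UMI counts of 1 10x sample, for which the paper's methods name Cell Ranger and mm10. The authors deposited FPKM values for the V580 days, E12.5_GC and the 24 h and 48 h treatments, with no counts, so their depth is unknown. The authors deposited read counts for the GSC stages. HISAT2, featureCounts, RSEM, SAMtools, Trim Galore and FastQC are named in the submitters' processing notes, without versions. A table whose values could not be matched to samples was not used here. Of the FPKM table, 27 columns were matched to samples, and 4 per-sample columns that no label matched were left out, so the comparison with AM580 alone was not run.

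All 15412 barcodes had at least 200 genes (the lowest had 301) and were kept. Their median was 9193 UMIs. The members, the gene lists and the comparisons were chosen with earlier results of these data known. Summed CPM and ratios were computed with numpy 2.4.6 in Python 3.11.15, with exact Poisson and Clopper-Pearson 95% intervals from scipy 1.17.1. Genes were compared where a group had at least 20 CPM. Clusters and neighbours came from scanpy 1.11.5 and leidenalg 0.10.2 (10000 UMIs per barcode, logged, 2000 variable genes, 20 principal components, 20 neighbours, resolution 0.5, seed 0, rule genes left out). Barcodes were also thinned to 1000 UMIs. The test on FPKM was limma-trend (limma 3.58.1, R 4.3.3) on log2(FPKM+1), for genes with at least 1 FPKM in at least 3 libraries (days) or 2 (hours), with 1 model per experiment. No 2 libraries were identical. Both steps were tested on simulated data. Sequences came from GENCODE transcripts and RefSeq promoters and were aligned with biopython 1.88.

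Genes were named by rule: the 25 highest ratios (at least 50 CPM and a UMI in 10% of the selected barcodes) and the 15 lowest (same limits in the others), without the 8 rule genes, the 10 genes most alike to summed Rhox6 and Rhox9, the markers, and 2 to 6 examples of each list. The values of 1 of the 25 are not reported here.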

Additional observations from a re-analysis of the deposited data

How the results depend on the processing

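The share of barcodes selected was 4.39% with at least 2 Rhox UMIs, 2.50% with at least 5, 6.08% with at least 3 per 10000 UMIs, and 6.57% without the exclusion genes. Genes lower by 2-fold numbered 440 of 6946 with at least 2 Rhox UMIs. Without the exclusion genes 307 were higher and 101 lower (4.51% and 1.48% of 6810), and at 5 CPM 1073 and 1492 of 10898. By a choice made after seeing the data, cluster 8 alone gave 985 higher and 1085 lower (13.7% and 15.1% of 7170). The selected barcodes of other clusters gave 127 and 161 (1.89% and 2.39% of 6724). The share with a Sct UMI was 60.6% without thinning. Over 11 settings tried on the cells before the added ones, the ratio of Sct ran from 19.4 to 78.1, of Tfap2c from 23.9 to 102, of Krt8 from 3.09 to 5.59 and of Wnt4 from 0.177 to 0.563.

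In bulk, log2(FPKM+0.1) gave 1 leading gene higher at V580_D6 than V580_D4, 1 lower at V580_D8 than V580_D6 and 1 lower at V580_D10 than V580_D8. With no fold limit, 5 were higher and 4 lower at V580_D6 than V580_D4 (21.9% and 23.0% of all genes), 2 higher and 4 lower at V580_D8 than V580_D6 (20.3% and 20.9%), 1 lower at V580_D10 than V580_D8 (15.0%), 8 higher at V580_D6 than E12.5_GC (35.0%), and 3 higher in V580_48h than Con_48h (25.1%). Leaving out 1 library at a time gave 5 to 6 against E12.5_GC, 1 for V580_48h, 0 to 1 for each of the 2 counts lower at V580_D6, which were added after seeing the data, and 0 for the other 4 counts. The replicate block gave 0 for those 4, and 5, 1, 1 and 1, the same as without it. Same-numbered libraries had correlations of -0.27 to 0.32, so the numbers were not taken as pairs. The cause of each move was not tested. The AM580 and doublet alternatives were not run. A single library and a median of 4170 UMIs limit the calls on low genes such as Eomes or Elf5.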
